A study of Mus musculus with 10 samples.

Results

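Nucleophosmin (NPM1) was mapped by CUT&Tag in cardiac macrophages from infarcted and from sham-operated mouse hearts, and the peaks called in each library were compared for presence, width and distance to gene ends. The infarct library held 79893 called NPM1 peaks and the sham library 58011, together 137904 of the 427705 peaks in the 6 peak lists of the series that were analysed. Both groups were wild-type (WT) mice at day 3 after surgery, the first after myocardial infarction and the second after a sham operation. Cardiac macrophages were isolated from the hearts. In CUT&Tag an antibody, here against NPM1, brings a hyperactive transposase to chromatin, where it cuts and tags the DNA around it. Each group was 1 library. Strain, sex, age and the number of hearts pooled into a library are not stated in the labels, and the surgery, the animals and the library of a group cannot be told apart. With a single library on each side there is no spread between replicates to set a difference against, so values are described without tests.

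NPM1 is an abundant acidic histone chaperone that shuttles between the nucleolus, where it takes part in ribosome assembly, and the nucleoplasm, where it binds histones and chromatin-associated factors. Its contact with DNA is largely indirect, through nucleosomes and partner proteins, so a CUT&Tag peak marks chromatin near the protein and not a base-specific site. Cardiac macrophages clear dead cells after infarction and then take part in scar formation and repair.

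After infarction NPM1 peaks stood at the starts of a large part of the protein-coding genes, were wide there, and were most frequent at CpG-rich promoters. In the sham library the peaks were narrow and lay near gene starts about as often as the genome's own bases do. They marked at most 28.1% of any gene list or family counted, a share reached in clustered protocadherins, whose gene models overlap. The promoter stretches below show sequence of both kinds. Each is the 250 bases before an annotated start, from RefSeq (GRCm38.p6, the assembly that mm10 names), written 5′ to 3′ on the gene's own strand with CpG dinucleotides in capitals. The first 4 lay inside an infarct peak and had no sham peak. They belong to Mtor, the mTORC1 kinase gene (chr4:148448332-148448581, plus strand), Setd1a, an H3K4 methyltransferase gene (chr7:127777139-127777388, plus strand), Hk2, a hexokinase gene of glycolysis (chr6:82774455-82774704, minus strand), and Cxcl2, a neutrophil-attracting chemokine gene (chr5:90903649-90903898, plus strand). The last 2 had no NPM1 peak in either library and belong to Krtap6-2, a hair keratin-associated gene with a sham peak further inside the gene (chr16:89420112-89420361, minus strand), and Retnla, a gene of alternatively activated macrophages (chr16:48842359-48842608, plus strand).
Mtor: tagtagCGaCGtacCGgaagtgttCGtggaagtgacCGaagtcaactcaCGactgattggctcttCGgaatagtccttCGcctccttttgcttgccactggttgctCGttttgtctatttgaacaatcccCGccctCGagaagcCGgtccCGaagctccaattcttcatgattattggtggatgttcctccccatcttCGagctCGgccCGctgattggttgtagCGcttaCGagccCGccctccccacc
Setd1a: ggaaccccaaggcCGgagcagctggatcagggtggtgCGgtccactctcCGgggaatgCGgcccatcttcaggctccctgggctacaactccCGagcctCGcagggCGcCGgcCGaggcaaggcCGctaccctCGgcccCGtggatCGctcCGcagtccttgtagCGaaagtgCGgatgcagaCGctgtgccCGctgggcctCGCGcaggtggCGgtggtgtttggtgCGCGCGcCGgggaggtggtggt
Hk2: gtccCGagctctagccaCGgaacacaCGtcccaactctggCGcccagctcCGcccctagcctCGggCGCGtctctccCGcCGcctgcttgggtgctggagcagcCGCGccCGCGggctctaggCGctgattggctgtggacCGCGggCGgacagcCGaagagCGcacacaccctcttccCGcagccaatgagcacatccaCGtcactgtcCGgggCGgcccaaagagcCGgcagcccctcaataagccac
Cxcl2: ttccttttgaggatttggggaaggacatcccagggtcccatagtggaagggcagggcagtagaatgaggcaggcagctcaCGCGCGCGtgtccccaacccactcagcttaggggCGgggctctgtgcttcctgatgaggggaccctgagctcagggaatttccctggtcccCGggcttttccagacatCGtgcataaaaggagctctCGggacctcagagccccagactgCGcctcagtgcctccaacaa
Krtap6-2: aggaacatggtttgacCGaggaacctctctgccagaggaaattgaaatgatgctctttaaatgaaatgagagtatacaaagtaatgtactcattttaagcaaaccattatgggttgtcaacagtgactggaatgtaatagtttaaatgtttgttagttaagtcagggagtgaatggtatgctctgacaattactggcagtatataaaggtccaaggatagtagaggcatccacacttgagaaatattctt
Retnla: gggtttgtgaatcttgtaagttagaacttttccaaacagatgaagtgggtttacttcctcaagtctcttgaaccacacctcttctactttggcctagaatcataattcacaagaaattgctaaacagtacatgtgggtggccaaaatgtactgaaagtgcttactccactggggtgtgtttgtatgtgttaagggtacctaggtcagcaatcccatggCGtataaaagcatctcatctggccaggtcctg

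These stretches held 19 CpG dinucleotides for Mtor, 25 for Setd1a, 25 for Hk2 and 9 for Cxcl2, against 1 for Krtap6-2 and 1 for Retnla. The infarct peak over the Mtor stretch was 526 bp wide, that over Setd1a 1487 bp, that over Hk2 655 bp and that over Cxcl2 1177 bp. The letters of a TATA box (TATAAA) lay 49 bases before the start of Krtap6-2 and 30 bases before that of Retnla, and in none of the other 4 stretches.

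The libraries differed in depth, and this bears on every count. Read totals are not stated, but the deposited fold and −log10 p of a peak fix a whole-number pileup and a local background, recovered within 0.001 for 99.9% of the summits of each list. The most frequent background was 3.03 reads per position in the infarct library and 1.29 in the sham library, a ratio of 2.35. A summit over that background had to reach 8 reads to be listed in the infarct library and 5 in the sham library. The fold and −log10 q printed for a peak are those the authors deposited, and they order peaks inside their own list. To set the lists at like depth, infarct pileups and backgrounds were multiplied down to the sham background, and 62695 of the 79893 infarct peaks (78.5%) still reached the smallest −log10 p of the sham list. The text calls these the scaled infarct list. A gene without a peak is one where nothing was called at the depth of that library.

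The infarct peaks were wider as a whole, at widths as deposited and not adjusted for depth. Their median width was 311 bp (quartiles 222 and 452 bp), against 233 bp (quartiles 200 and 315 bp) in sham. The smallest width either list allowed, 200 bp, was that of 18.6% of infarct peaks and 36.1% of sham peaks. Peaks wider than 1 kb numbered 2168 in the infarct list (2.71%) and 350 in the sham list (0.603%). In all, infarct peaks covered 30.6 Mb and sham peaks 16.5 Mb. The median fold, which also depends on depth, was 2.98 in infarct and 3.72 in sham, and the highest folds were alike at 44.4 in infarct and 43.5 in sham. Peaks with a −log10 q of 5 or more, the strict class used below, were 13908 of the infarct list (17.4%) and 5871 of the sham list (10.1%). This bar was not scaled for depth, so strict counts of infarct and sham are not at like depth. An infarct peak of 4.84-fold at Rpl7 had a −log10 q of 6.95, and a sham peak of 4.81-fold at Tsc1 had 3.6.

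Distance was measured from the middle of a peak to the nearest annotated end, start or finish, of 21887 protein-coding genes. The median distance was 14.8 kb for infarct peaks and 33.2 kb for sham peaks, and it was 13.3 kb in the scaled infarct list. Within 1 kb of a gene end lay 11391 infarct peaks (14.3%, 95% exact binomial interval 14% to 14.5%) and 2095 sham peaks (3.61%, interval 3.46% to 3.77%), where 2.91% of genome bases lie. These intervals cover counting error of peaks and not differences between animals. Scaling to the sham background left the infarct share at 16.4%. Beyond 50 kb from any gene end lay 24.9% of infarct peaks and 41.2% of sham peaks, beside 51.3% of genome bases.

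The difference was concentrated in the bases next to the gene end. Within 250 bp of a gene end lay 6400 infarct peaks, 10.3 times the share of genome bases there, and 489 sham peaks, 1.09 times that share. From there to 500 bp the ratio was 3.78 in infarct and 1.39 in sham. From 1 to 2.5 kb it was 1.86 in infarct and 1.21 in sham. Between 10 and 50 kb the libraries were close, at 1.17 in infarct and 1.18 in sham.

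Median width fell with distance in the infarct library and changed little in the sham library. Infarct peaks within 250 bp of a gene end had a median width of 552 bp, those from there to 500 bp 458 bp, those from 500 to 1000 bp 334 bp and those beyond 50 kb 287 bp. Sham medians in all 8 distance classes stayed between 219.5 and 234 bp. The 90th percentile of width went the other way in sham, from 357 bp within 250 bp to 434 bp beyond 50 kb. In infarct it was 990 bp within 250 bp and 568 bp beyond 50 kb. Peaks wider than 1 kb made up 9.56% of infarct peaks within 250 bp of a gene end and 0.409% of sham peaks there, where sham had 2. In infarct their share was highest in the next class, from 251 to 500 bp, at 15.6%. Within 250 bp the median fold was 4.29 in infarct and 3.50 in sham, and the strict class held 58.2% of the infarct peaks and 3.68% of the sham peaks.

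**Figure D1:**
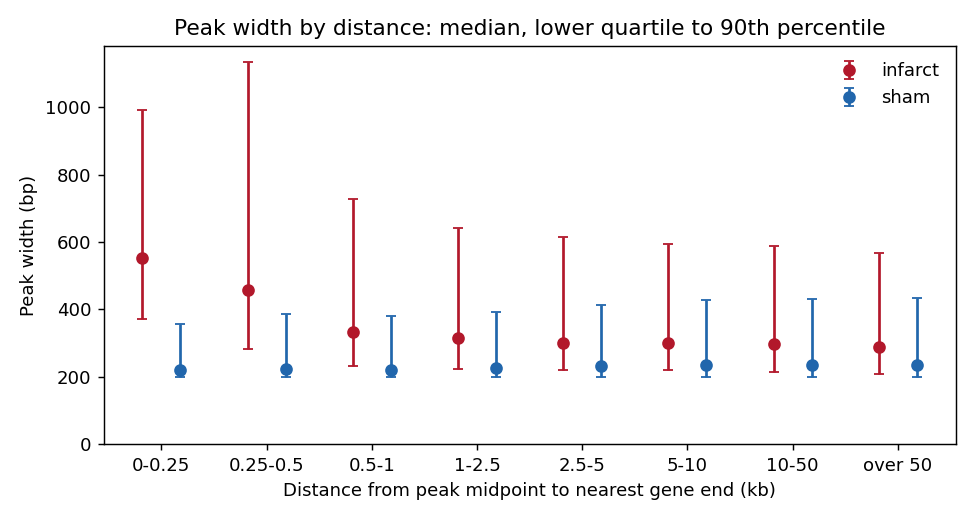
Width in bp of NPM1 peaks by distance from the peak's middle to the nearest gene end, for the infarct library (red, left of each pair) and the sham library (blue). Points are medians over peaks and bars run from the lower quartile to the 90th percentile. Infarct medians run from 552 bp next to gene ends to 287 bp beyond 50 kb, while sham medians stay between 219.5 and 234 bp.

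Peaks were also ranked inside each list and equal numbers taken. Of the 1000 infarct peaks with the highest −log10 p, 46.2% lay within 1 kb of a gene end, against 2.2% of the 1000 highest sham peaks. Of the 5000 highest, 48.7% of infarct and 1.92% of sham peaks lay there. In the infarct list the share was lower at the very top, 34.0% of the 500 highest, and lower again with weaker peaks, 30.9% of the 20000 highest. In the sham list the share stayed between 1.80% and 3.61% over all ranks, so the best sham peaks were not nearer to genes than the weakest ones.

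**Figure D2:**
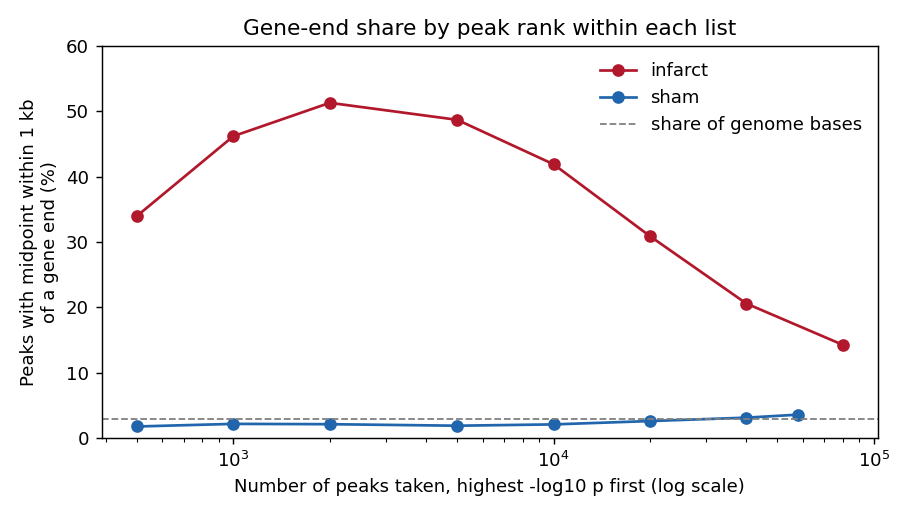
Percent of NPM1 peaks within 1 kb of a gene end among the highest-ranked peaks of the infarct (red) and sham (blue) lists, against the number of peaks taken (log axis). The dashed line is the 2.91% of genome bases that lie there. Infarct shares run between 14.3% and 51.3%, and sham shares between 1.80% and 3.61%.

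Fold classes showed the same split. Among infarct peaks with a fold over 5, 3014 of 6451 (46.7%) lay within 1 kb of a gene end, against 134 of 7223 (1.86%) in sham. The highest class was different in kind. All 157 infarct peaks with a fold over 15 and all 247 such sham peaks overlapped a peak of the other cardiac NPM1 library, and 5 of the infarct ones and 8 of the sham ones lay at gene ends. The same regions were listed beyond these libraries as well. Of these infarct peaks 157 overlapped a peak of H3K4me3 in WT infarct macrophages and 155 a peak of NPM1 in untreated bone marrow-derived macrophages (BMDM).

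Presence was then read per gene. A peak that reached within 1 kb of either annotated end, inside or outside the gene, is called a gene-end peak. A gene-end peak was called for 11072 of 21887 genes in the infarct library (50.6%) and 2384 in the sham library (10.9%). Scaled to the sham background, the infarct library still marked 10357 genes (47.3%). In the strict class, which was not scaled for depth, the count was 6100 genes in infarct (27.9%) and 149 in sham (0.681%). A peak was called in infarct and not in sham at 9509 genes (43.4%), in sham and not in infarct at 821 (3.75%), in both at 1563 (7.14%) and in neither at 9994 (45.7%). Of the 9509 genes, 8903 (93.6%) kept their infarct peak after scaling. Among the 1563 genes with both, the best infarct and best sham peak overlapped at 659 (42.2%), and at the others they lay apart. The best peak of a gene was 535 bp wide in the median over 9732 distinct infarct peaks and 227 bp over 2196 distinct sham peaks.

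The gene table lacks strand, but RefSeq promoter entries gave start sites and strand for 17492 of the genes (79.9%). For 15328 of them longer than 2 kb the start could be separated from the other end. In the infarct library 7746 had a peak at the start (50.5%) and 2071 at the other end (13.5%). In the sham library 830 had a peak at the start (5.41%) and 980 at the other end (6.39%). Of the genes with a peak at the other end, 33.7% in infarct and 18.3% in sham had it within reach of a neighbouring gene's end as well. Peaks covered more than 1 kb of the 2 kb around the start at 1242 genes in the infarct library and at 0 in sham.

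Around 21238 distinct start sites, infarct summits numbered 74.2 per 1000 starts per 100 bp bin, as the mean of the bins within 200 bp of the start, against 4.82 at 4 to 5 kb, a ratio of 15.4. Sham summits numbered 2.77 per 1000 starts beside the start and 2.67 at 4 to 5 kb, a ratio of 1.04. The highest infarct bin was the first 100 bases of the transcript, with 85.1 summits per 1000 starts. The highest sham bin lay 300 to 400 bases inside, with 4.43. The scaled infarct list gave a ratio of 17.9.

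**Figure D3:**
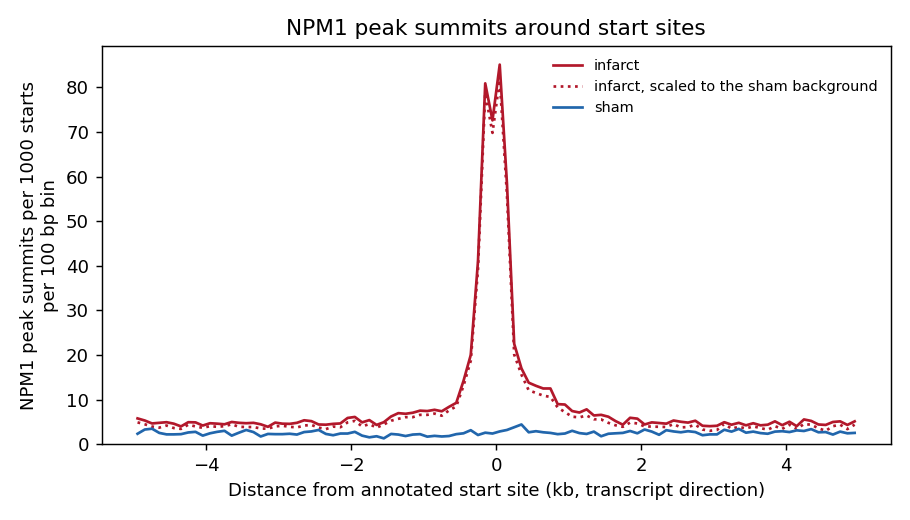
NPM1 peak summits per 1000 annotated starts in 100 bp bins, against distance from the start in kb along the transcript, for the infarct library (red), the infarct list scaled to the sham background (dotted red) and the sham library (blue). Infarct summits reach 85.1 per 1000 starts in 1 bin, and sham summits do not pass 4.43.

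Regions were shared to a small extent, and the shared part changed with distance in opposite directions in infarct and sham. An overlap of at least 1 bp joined 16314 infarct peaks (20.4% of the list) with 16644 sham peaks (28.7% of the list). Of infarct peaks within 250 bp of a gene end, 3.92% had a sham counterpart, against 30.9% of infarct peaks beyond 50 kb. Of sham peaks within 250 bp of a gene end, 40.3% had an infarct counterpart, against 26.3% of sham peaks beyond 50 kb. Sharing in sham went with enrichment. A counterpart was found for 95.1% of the 1473 sham peaks with a fold over 8 and for 347 of the 350 sham peaks wider than 1 kb. The 1473 peaks were also listed outside the cardiac NPM1 libraries. Of them 97.2% overlapped a peak of H3K4me3 in WT infarct macrophages and 65.4% one in infarct macrophages of Npm1 conditional-knockout mice. NPM1 peaks of BMDM overlapped 98.0% of them with interleukin-4 and 74.9% untreated. This sharing was therefore not particular to NPM1 or to cardiac macrophages. Of the 2168 infarct peaks wider than 1 kb, 1075 lay within 1 kb of a gene end and 32.1% had a sham counterpart.

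Where a region was called in both libraries, the shapes differed by place. Beyond 1 kb from gene ends the 15920 pairs had a median width of 370 bp in infarct and 319 bp in sham and a median fold of 3.40 in infarct and 4.27 in sham. Within 250 bp of a gene end the 197 pairs had a median width of 582 bp in infarct and 240 bp in sham and a median fold of 4.22 in infarct and 3.50 in sham. There, 85.3% of pairs were wider in infarct, against 58.4% of pairs beyond 1 kb.

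Npm1 itself (chromosome 11, 33152498 to 33164142) carried an infarct peak 833 bp wide from 33162535 to 33163367, inside the gene, with a summit pileup of 33 reads, a fold of 7.14 and a −log10 q of 16.8. No sham gene-end peak was called at Npm1. Scaled to the sham background the infarct pileup would be 14 reads.

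In the mTORC1 and TSC list of 33 genes, for the pathway by which nutrients and growth factors license cell growth, 32 had a gene-end peak in infarct and 6 in sham, and all 32 were kept after scaling. The strict class held 20 in infarct and 0 in sham. Over all genes the shares were 50.6% in infarct and 10.9% in sham, and 27.9% and 0.681% in the strict class. Other lists stood nearly as high or higher in infarct, such as cell cycle genes at 95.2% and heat shock genes at 100%. Rragb, a Rag GTPase gene, had none in either library. Akt1s1, which encodes an mTORC1 inhibitor, had a 1732 bp infarct peak with a fold of 5.38 and no sham peak. Lamtor1, which encodes the lysosomal anchor of the pathway, had an 810 bp infarct peak with a fold of 7.03 and no sham peak. Rragc, another Rag GTPase gene, had a 791 bp infarct peak with a fold of 7.61 and no sham peak. Tsc1, whose product restrains mTORC1, was covered over its start by a 1065 bp infarct peak of 37 reads (15.7 scaled to the sham background). The 212 bp sham peak of 10 reads stood at the opposite end of Tsc1. Tsc2, its partner, had narrow peaks in both libraries beyond its far end, 200 bp and 2.65-fold in infarct and 207 bp and 3.33-fold in sham, and 0 covered bases at its start in both. Kdm5b, which encodes an H3K4 demethylase, had no gene-end peak in either library.

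The nucleolar and NPM1-partner list had 22 of 24 members with a peak in infarct and 0 in sham, beside 50.6% and 10.9% of all genes. The 4 highest by −log10 q were Mdm2, the p53 ubiquitin ligase gene (950 bp, fold 7.71 in infarct), Gnl3, which encodes nucleostemin (948 bp, fold 7.53), Ncl, which encodes nucleolin (1312 bp, fold 6.84), and Nop56, a box C/D snoRNP gene (879 bp, fold 7.94). Ubtf and Nat10 had none in either library. Ribosomal protein genes were marked at 31 of 32 in infarct and 4 of 32 in sham, and Rps2 had a sham peak without an infarct one, 205 bp wide and 3.46-fold. In the wider families, 74 of 83 cytosolic and 69 of 78 mitochondrial ribosomal protein genes had an infarct peak, against 8 and 6 in sham. Translation initiation factor genes had 49 of 56 in infarct and 2 in sham.

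The 20 listed heat shock and chaperone genes all had an infarct peak, 19 of them in the strict class, and 3 had a sham peak, 0 of them strict. Over all genes the shares were 50.6% in infarct and 10.9% in sham, and 27.9% and 0.681% in the strict class. In the wider Hsp40 cochaperone family (Dnaj), which overlaps that list, 36 of 45 genes had an infarct peak and 6 of 45 a sham peak. Hspa8, the constitutive Hsc70 gene, had a 1373 bp infarct peak of 135 reads and a fold of 8.72, and no sham peak. Hsp90aa1, the inducible Hsp90 gene, had an 834 bp infarct peak with a fold of 9.77, and a separate 210 bp sham peak with a fold of 3.06 that did not overlap it. Proteasome subunit genes, which degrade damaged proteins through their products, had 20 of 22 in infarct and 3 of 22 in sham.

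Immune regulators were counted next, beside 50.6% of all genes in infarct (27.9% strict) and 10.9% in sham (0.681% strict). Of 25 NF-kappaB and AP-1 regulators, 24 had an infarct peak, 22 of them strict, and 3 had a sham peak, 0 of them strict. Malt1, which encodes a paracaspase upstream of NF-kappaB, had a 1024 bp infarct peak of 144 reads and 11.8-fold. Relb, an NF-kappaB subunit gene, had one of 1198 bp and 8.53-fold, and Jun, an AP-1 subunit gene, one of 1747 bp and 6.77-fold, and none of these 3 had a sham peak. Egr1, an immediate early gene, had a 1989 bp infarct peak of 147 reads (62.5 scaled to the sham background) at one end. Its 200 bp sham peak of 8 reads stood at the opposite end. Inflammatory genes had 20 of 26 in infarct and 4 of 26 in sham. Tnf carried 1271 bp and Ccl3 1092 bp in infarct with no sham peak, Ccl5 had a 346 bp sham peak and no infarct one, and Il1a, Il1b and Il6 had none in either library.

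The IL-4 response list had 14 of 24 in infarct and 3 of 24 in sham, beside 50.6% and 10.9% of all genes. Pparg, a lipid-sensing nuclear receptor gene, had a 1359 bp infarct peak with a fold of 6.28 and no sham peak, and Arg1, Retnla, Chil3 and Mrc1, the usual markers of that state, had none in either library. Interferon response genes had 9 of 14 in infarct and 3 of 14 in sham, and the 3 in sham, Oas1a, Ddx58 and Ifit3, were without an infarct peak. Their sham folds were 5.0, 4.66 and 3.24, and all 3 sham peaks were 431 bp or narrower. Stat2, a signal transducer of that pathway, had a 691 bp infarct peak with a fold of 7.04 and no sham peak. The efferocytosis and repair list had 17 of 24 in infarct and 4 of 24 in sham. In that list Mertk, a receptor for dying cells, had a 1291 bp infarct peak at its start, against a 302 bp sham peak at its other end, and Axl, a related receptor, had a 1035 bp infarct peak with 0 covered bases at its start.

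Metabolic genes were marked as follows, beside 50.6% of all genes in infarct and 10.9% in sham. Glycolysis genes had 16 of 21 in infarct and 1 of 21 in sham, genes of the TCA cycle and oxidative phosphorylation 18 of 22 in infarct and 1 of 22 in sham, and fatty acid oxidation genes 14 of 15 in infarct and 2 of 15 in sham. Pkm, the pyruvate kinase gene, had a 1088 bp infarct peak with a fold of 5.81, and Mdh2, the mitochondrial malate dehydrogenase gene, one of 568 bp with a fold of 8.18. Neither had a sham peak. Acadm, a medium-chain acyl-CoA dehydrogenase gene, had an 843 bp infarct peak at its start with a fold of 9.25 and a 497 bp sham peak at its other end with a fold of 6.55. Lysosome and V-ATPase genes had 21 of 23 in infarct and 0 in sham. Npc2, a cholesterol carrier gene of that list, had a 918 bp infarct peak with a fold of 10.4.

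H3K4 methylation and demethylation enzyme genes had 13 of 16 in infarct and 2 of 16 in sham, beside 50.6% and 10.9% of all genes. Kmt2a, a methyltransferase gene, had the highest −log10 q of this list in infarct, 42.9, with 681 bp and a fold of 9.22. Kdm1b, a lysine demethylase gene outside this list, stood higher at 50.5, with 826 bp and a fold of 11.2. It also had a 200 bp sham peak with a fold of 3.5. Cell cycle and replication genes had 20 of 21 in infarct and 1 of 21 in sham. Wee1, the kinase gene that delays mitosis, had a 947 bp infarct peak of 153 reads with a fold of 13.6 and a −log10 q of 115, and no sham peak. Scaled to the sham background that summit would hold 65.0 reads. Histone genes had 62 of 67 in infarct and 6 of 67 in sham, and infarct peaks covered a median of 824 bp around the starts of the family, beside 0 bp over all genes with a start site.

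The widest best gene-end peak of the infarct library lay at Cited2, which encodes a transcriptional coregulator of the hypoxia response (chromosome 10, 17722217 to 17724525). It was 2309 bp wide with a pileup of 38 reads and a fold of 4.97, and no sham peak was called there. Usp9x, a deubiquitinase gene, followed with 2207 bp and Mboat7, a phospholipid acyltransferase gene, with 2199 bp, both without a sham peak. Width and fold did not rank the genes alike. The 10 widest had folds between 4.20 and 5.51, while Wee1, Ppp1cb and Rnft1, among the 10 highest folds at 13.6, 13.4 and 13.6, had widths of 947, 1034 and 845 bp.

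Sham peaks without an infarct gene-end peak were small in number and in extent. Xkrx led them with a 458 bp sham peak of 21.0-fold, but an infarct peak of 17.5-fold overlapped it just outside the window, so this gene does not separate the libraries. Dpy19l3 followed with 456 bp and 7.44-fold, Exosc10, an RNA exosome gene, with 336 bp and 6.40-fold, and Krtap6-2 with 248 bp and 6.12-fold, and none of these 3 overlapped an infarct region. Such overlaps just outside the window were found for 18 of the 821 genes. For the genes marked in infarct and not in sham the number was 33 of 9509.

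The strongest gene-end peaks that overlapped between the libraries were close in width, and several stood away from the start. At Wls, a Wnt secretion gene, the infarct peak was 481 bp wide with a fold of 42.4 and the sham peak 492 bp with a fold of 41.6, both past the gene's far end. At Lars2, a mitochondrial leucyl-tRNA synthetase gene, the infarct peak was 511 bp and 27.9-fold and the sham peak 509 bp and 15.3-fold, both near the far end. At Psmb8, an immunoproteasome gene, the widths were 1373 bp in infarct and 1310 bp in sham, and at Jpt1 1064 bp in infarct and 963 bp in sham. Laptm5, a lysosomal protein gene of haematopoietic cells with weaker overlapping peaks, had them inside its far end, 532 bp and 4.59-fold in infarct and 349 bp and 8.81-fold in sham.

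Gene families taken by symbol covered a wider range, beside 50.6% of all genes in infarct and 10.9% in sham. Olfactory receptor genes, which encode the odorant receptors of the nose, had a peak at 42 of 1110 in infarct and 64 of 1110 in sham. Vomeronasal receptor genes had 7 of 353 in infarct and 25 of 353 in sham, keratin-associated genes 7 of 56 in infarct and 10 of 56 in sham, and beta-defensin genes 4 of 42 in infarct and 6 of 42 in sham. These 4 were the families, of 38 counted, with fewer members marked in infarct than in sham. Scaled to the sham background, infarct counts were lower in these 4, at 28, 5, 4 and 2, and also below sham in clustered protocadherins (15 in infarct, 16 in sham) and serpins (8 in infarct, 9 in sham), while keratins had 8 in each. The members of these families, like the histone genes, include near-identical copies, between which reads can be misplaced. Clustered protocadherins, whose alpha and gamma genes share overlapping gene models, had 16 of 57 in each library before scaling, and serpins 9 of 63 in each. Of the protocadherins 15 were marked in both libraries. Both Pcdha1 peaks began just past its end at 37187657, and a peak there counts for each member ending nearby. Zinc finger genes (228 of 397 in infarct, 43 of 397 in sham) and solute carriers (198 of 375 in infarct, 39 of 375 in sham) lay near the shares of all genes. Homeobox cluster genes had 18 of 39 in infarct with 1 in the strict class, and 1 of 39 in sham.

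Marker genes gave a limited check of the labelled cell type in the infarct library, where 50.6% of all genes had a peak. Of 24 macrophage identity genes, 22 (91.7%) carried an infarct peak and 4 a sham peak. Lists not made for macrophage identity were marked about as often in infarct, such as proteasome subunits (90.9%) and cell cycle genes (95.2%). Spi1, which encodes PU.1, was covered by 1837 bp, Cebpa by 1560 bp and Cd68 by 1095 bp in infarct, none with a sham peak, and Aif1 and Ccr2 had none in either library. Markers of other cells were marked at 6 of 20 for cardiomyocytes, 2 of 14 for fibroblasts, 6 of 13 for endothelium, 3 of 12 for neutrophils, 4 of 13 for T and NK cells and 1 of 10 for B cells in infarct, against 1, 1, 1, 0, 0 and 0 in sham. Endothelial markers, at 46.2% in infarct, lay near the 50.6% of all genes, and the others lay lower. Genes used in other tissues, such as liver, pancreas and testis, had 6 of 18 in infarct and 2 of 18 in sham, among them the sperm protamine gene Prm1 with a 561 bp infarct peak and a fold of 5.89. The marked cardiomyocyte genes included Atp2a2, the calcium pump gene of the sarcoplasmic reticulum, with 718 bp and a fold of 5.85 in infarct, and Ckm, the muscle creatine kinase gene, with 292 bp and 3.91-fold, neither with a sham peak. Of endothelial genes, Kdr, a VEGF receptor gene, had a 542 bp infarct peak of 3.72-fold and Erg, a transcription factor gene, one of 405 bp and 3.97-fold, and of T cell genes Cd3d had one of 618 bp and 4.17-fold, all without a sham peak. The cardiomyocyte genes Myh6, Tnnt2 and Ttn, the endothelial gene Pecam1 and the T cell gene Cd3e had none in either library. With 4 of 24 identity genes marked, beside 10.9% of all genes, the sham list could not be checked against its label in this way. The part of other cells in the differences was not tested. Scaled to the sham background, neutrophil markers in infarct numbered 1 in place of 3, fibroblast markers 1 in place of 2, cardiomyocyte markers 4 in place of 6 and T and NK cell markers 3 in place of 4, and each of the other 20 lists lost at most 1 infarct-marked member.

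**Figure D4:**
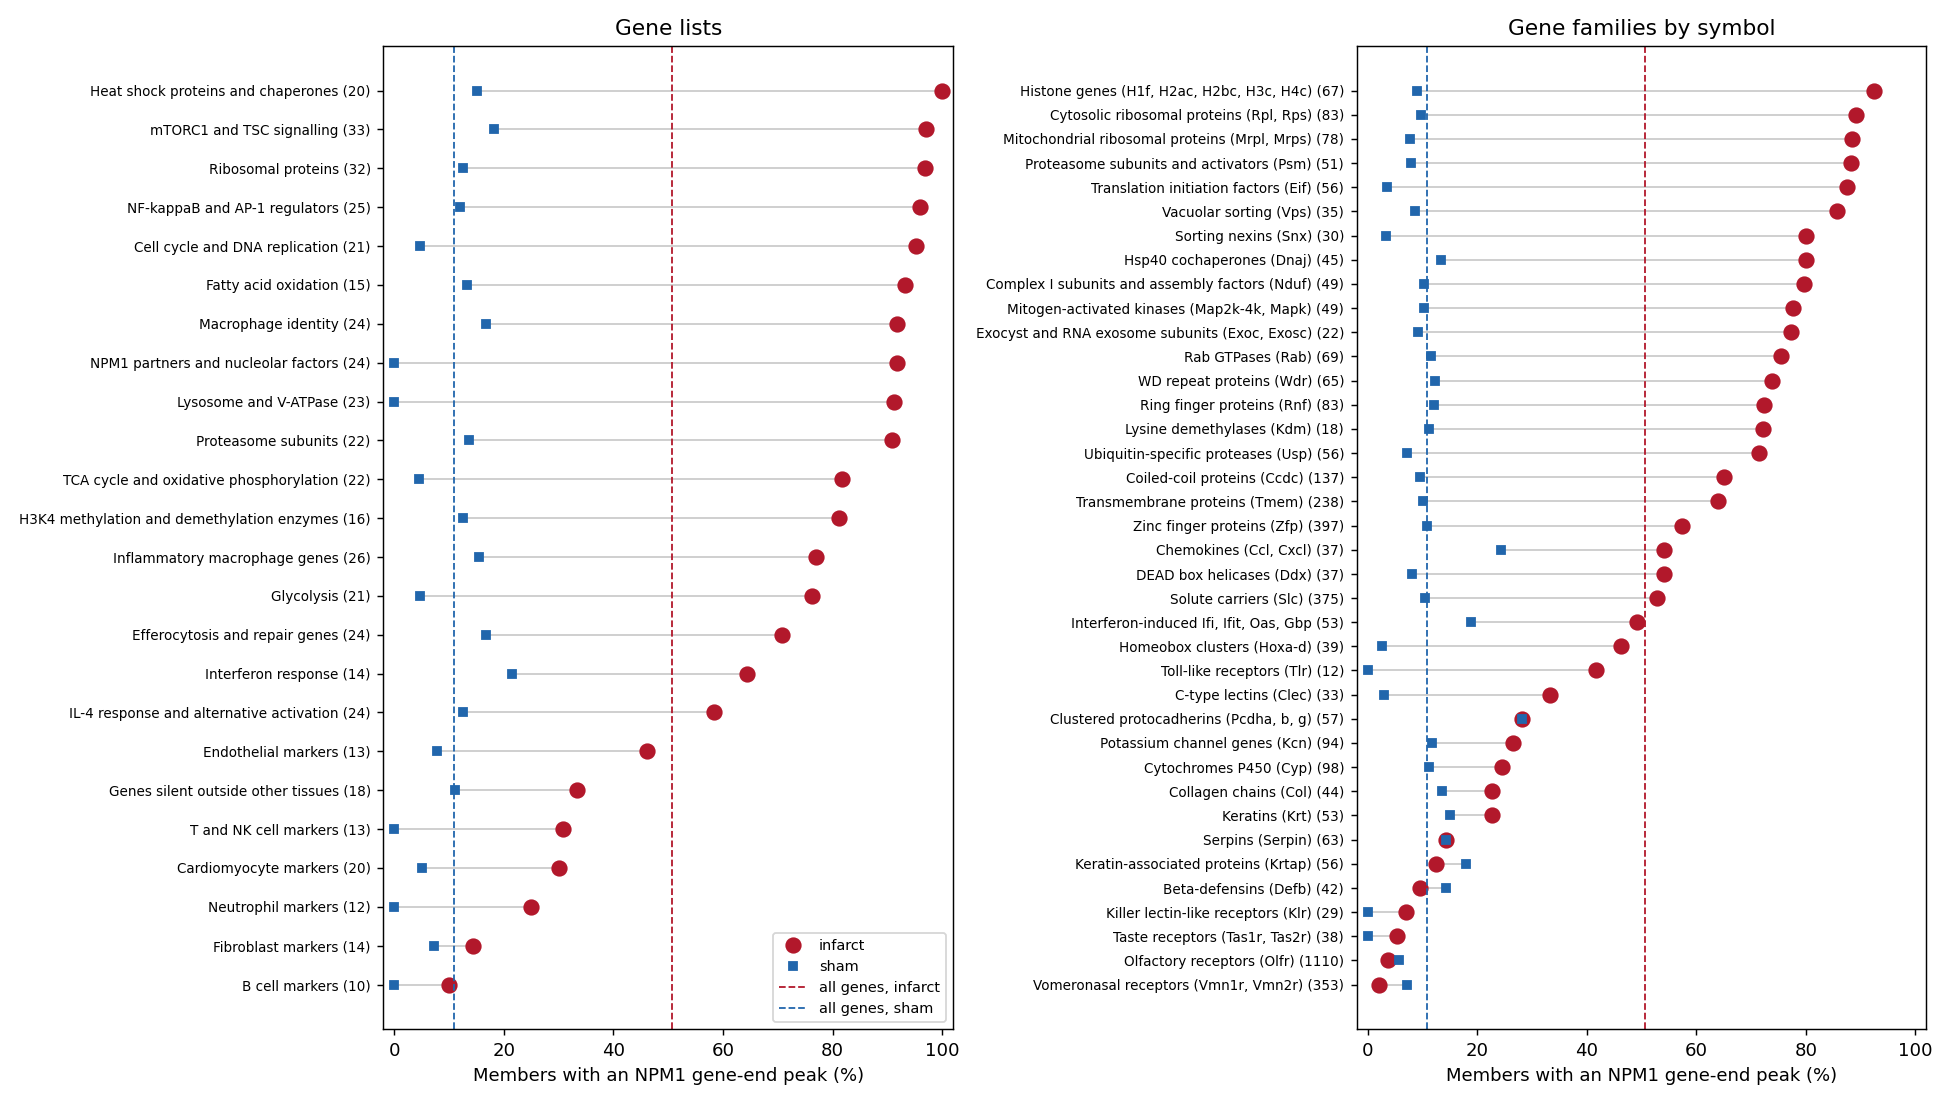
Percent of members with an NPM1 gene-end peak in infarct (red circles) and sham (blue squares), for 24 gene lists (left) and 38 families by symbol (right), with the number of measured members in parentheses. Dashed lines are the shares over all genes, 50.6% in infarct and 10.9% in sham. Infarct shares run from 100% for heat shock genes to 1.98% for vomeronasal receptors, while sham shares stay at 28.1% or lower.

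CpG content went with presence in the infarct library and not in sham. RefSeq promoter windows of 300 bases, 250 before and 50 after the start, were counted for 21238 distinct starts. An infarct peak overlapped 8549 of them (40.3%) and a sham peak 320 (1.51%). Of promoters with 0 to 2 CpG dinucleotides, 4.27% were overlapped in infarct and 1.69% in sham. The infarct share was 42.4% for 10 to 14 CpG and 70.8% for 25 or more, where the sham shares were 1.66% and 1.6%. The median number of CpG was 23 in promoters with an infarct peak and 13 in those with a sham peak, beside 13 over all. Promoters marked in sham and not in infarct, 142 in number, had a median of 4.

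**Figure D5:**
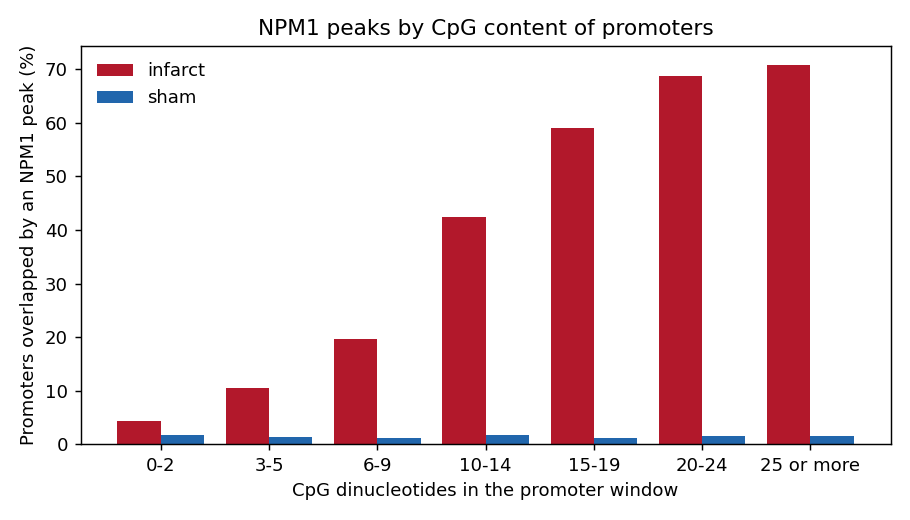
Percent of 300-base promoter windows overlapped by an NPM1 peak in infarct (red, left bar) and sham (blue, right bar), by number of CpG dinucleotides in the window. Infarct shares run from 4.27% to 70.8%, and sham shares stay between 1.21% and 1.69%.

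Short motifs were searched in the same windows on both strands. The NRF1 motif was found in 12.6% of promoters with an infarct peak and 7.81% of those with a sham peak, beside 6.38% of all. The ETS motif (CCGGAAGT) was in 9.28% with an infarct peak and 3.44% with a sham peak, beside 5.15% of all. A GC box (GGGCGG) was in 70.1% with an infarct peak and 51.9% with a sham peak, beside 46.2% of all. The TATA box letters (TATAAA) were in 5.86% with an infarct peak and 12.8% with a sham peak, beside 12.6% of all, and the AP-1 motif (TGANTCA) in 4.55% with an infarct peak and 4.69% with a sham peak, beside 6.99% of all. The E-box (CACGTG) was in 10.9% with an infarct peak and 4.69% with a sham peak, beside 7.84% of all. NRF1, GC box, ETS and E-box letters contain CpG themselves. Among promoters with 10 to 14 CpG, an infarct peak was called at 62.0% of those with the ETS motif and 41.0% of those without it, at 58.9% with and 41.7% without the NRF1 motif, at 46.9% with and 38.2% without the GC box, at 40.5% with and 42.5% without the AP-1 motif, and at 38.7% with and 42.8% without the E-box (CACGTG). Among promoters with 20 to 24 CpG the gaps were smaller for the ETS motif (77.1% with, 67.7% without) and the GC box (69.6% with, 66.1% without), and the NRF1 motif had 84.8% with and 66.7% without. There the order turned round for the AP-1 motif (71.4% with, 68.6% without) and the E-box (70.3% with, 68.5% without). The TATA box letters had smaller gaps inside these classes than over all promoters. An infarct peak was called at 39.1% with and 42.7% without them at 10 to 14 CpG, and at 65.2% and 68.9% at 20 to 24. For the PU.1 motif (GAGGAAGT) the shares were 58.5% with and 42.0% without at 10 to 14 CpG, and 79.7% and 68.4% at 20 to 24. Only 53 and 69 promoters of these classes held it. The CCAAT box (CCAAT) was in 39.8% with an infarct peak and 38.8% with a sham peak, beside 38.2% of all. Infarct peaks were called at 47.5% with and 38.7% without it at 10 to 14 CpG, and at 76.1% and 63.6% at 20 to 24. For the CRE (TGACGTCA), which also contains CpG, the shares were 47.3% with and 42.3% without, and 79.8% and 68.3%. Only 55 and 89 promoters of these classes held the CRE.

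Infarct peaks at gene ends overlapped the H3K4me3 lists of the series more often than those farther out. Of infarct peaks within 250 bp of a gene end, 89.9% overlapped a peak of H3K4me3, the histone mark of active promoters, in WT infarct macrophages, and 92.9% one in infarct macrophages of Npm1 conditional-knockout mice. They overlapped NPM1 peaks of BMDM treated with interleukin-4 in 85.7% and of untreated BMDM in 5.27%. Of infarct peaks within 1 kb of a gene end, 77.9% overlapped the WT H3K4me3 list, 75.1% the interleukin-4 list and 5.41% the untreated list. Of sham peaks within 1 kb of a gene end, 35.5% overlapped the WT H3K4me3 list, 39.5% the interleukin-4 list and 10.4% the untreated list. Beyond 1 kb, 32.4% of infarct peaks and 28.7% of sham peaks overlapped the WT H3K4me3 list, and 26.9% of infarct peaks and 10.1% of sham peaks the knockout one. The background was 4.18 reads per position in the interleukin-4 list and 1.31 in the untreated list, so depth and treatment cannot be told apart in these overlaps. The H3K4me3 libraries were made from infarct macrophages, so no mark of the sham state stands beside the sham peaks.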

How the data were processed

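NPM1 CUT&Tag peak lists of WT cardiac macrophages at day 3 after infarction or sham operation, 1 library each, were compared. The submitters' processing notes name Bowtie2, MACS2 2.2.7.1, deepTools and bcl2fastq 2.17, with mm10 as the build. Settings, duplicate handling and any control library or spike-in are not given. Each peak was deposited with its position, summit, score and fold (the ratio of summit pileup to local background, each with 1 added), and with −log10 values of p and of q. The authors deposited −log10 p from 2.01 upwards, and a q above 0.05 stood beside 27.6% of infarct and 22.2% of sham peaks. The deposited score was not used.

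Pileups were recovered from the deposited fold and −log10 p. Infarct values were scaled to the sham background, with neither redrawing of reads nor new peak boundaries. Widths were left as deposited in that list. Genes were the 21887 protein-coding genes of the GRCm38.p6 table, which gives outermost extents, so promoters inside a gene are missed. Starts came from RefSeq promoter entries, matched for 17492 genes. Trac was not matched in the T and NK cell list. Positions are 1-based. Shares of a list are over the members in the table.

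The members, 24 gene lists, 38 families and 9 motifs were chosen with earlier results of these data known, and the histone family was matched by its current symbols after the files were seen. Named were Npm1, Tsc1, Tsc2, Mtor and Kdm5b, the 10 widest and the 10 highest-fold infarct gene-end peaks, the 8 strongest sham peaks without and the 8 strongest with an overlapping infarct peak, up to 4 infarct, 3 sham and 3 common members of each list by −log10 q, and up to 3 of each family, passing over predicted genes and shared peaks. Members without a peak were named after their values were seen, to complete a count. Alternatives were other windows, q thresholds, summits, list lengths, scaling, autosomes, stitching and reciprocal overlap. The code was tested on simulated lists. Python 3.11.15, numpy 2.4.6, pandas 2.3.3, scipy 1.17.1 and matplotlib 3.10.9 were used.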

Additional observations from a re-analysis of the deposited data

How the results depend on the processing

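The infarct library exceeded the sham library in genes with a gene-end peak under all 8 alternatives, in median width under all 4 and in the share of peaks within 1 kb of a gene end under all 5. For width, the scaling, q and list-length alternatives dropped weak peaks and left the others as wide as deposited. Stitching could only widen peaks. Whether depth made the infarct peaks wider was therefore not tested. With a −log10 q of 5 or more, a bar not scaled for depth, 6100 genes were marked in infarct and 149 in sham. Of these, 6009 were marked in infarct and not in sham, 58 in sham and not in infarct and 91 in both. A 500 bp window marked 1397 genes in sham and 837 in both, and a 2.5 kb window 4761 in sham and 3560 in both. The infarct median width was 347 bp at q of 0.05 or less or at equal list lengths, 338 bp scaled to the sham background and 319 bp with peaks stitched within 500 bp. The sham median was 247 bp at that q and 236 bp stitched. The infarct share within 1 kb was 16.9% at q of 0.05 or less or at equal list lengths and 16.4% scaled, and the sham share 3.31% at that q. With a reciprocal overlap of 50%, 10933 sham regions were shared. Causes of these shifts were not tested. No paired analysis was possible because each group has 1 library, and no replicate could be left out. Weak peaks of the shallower sham library may have gone uncalled, and depth and surgery cannot be told apart beyond the scaling.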

Other observations

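Genes outside the protein-coding set were also counted, taking those more than 2 kb from a protein-coding gene end. Of 10007 lncRNA genes, 19.8% had a gene-end peak in infarct and 10.7% in sham. Of 341 tRNA genes, which encode the adaptors of translation, 127 had one in infarct (37.2%) and 25 in sham (7.33%). Pseudogenes had one at 8.64% in infarct and 8.58% in sham, of 9389. Without that 2 kb limit, peaks overlapped the body of 80 of 408 tRNA genes in infarct and 6 of 408 in sham. These were 70 distinct peaks in infarct and 6 in sham.

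The widest infarct peak of all, 4186 bp, lay on chromosome 17 from 39843091 to 39847276 and overlapped Rn18s-rs5, an 18S ribosomal RNA-like gene. Infarct peaks covered 5410 bp there and sham peaks 4165 bp, and the other 4 lists of the series covered between 4060 and 5439 bp, H3K4me3 lists included. Of the 20 widest infarct peaks 16 had a sham counterpart, and all 20 widest sham peaks had an infarct counterpart.

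Peaks per chromosome ran with a ratio of infarct to sham between 1.06 and 1.96 over the autosomes. The X chromosome had 840 infarct and 1091 sham peaks, and the Y chromosome 118 infarct and 913 sham peaks. The ratio of infarct to sham was 0.77 on X and 0.129 on Y. The sex of the mice and how they were pooled are not stated in the labels. Whether the libraries differ in sex or pooling was not tested, and such a difference and surgery cannot be told apart.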
